A study of Populus trichocarpa with 12 samples.

Results

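The 5 phenylalanine ammonia-lyase genes PtrPAL1 to PtrPAL5 of Populus trichocarpa (black cottonwood) were followed through a drought treatment. They were taken by identifier from a table of read counts for 41335 genes, and all 5 passed the filter on low counts. PtrPAL1 is Potri.006G126800, PtrPAL2 is Potri.008G038200, PtrPAL3 is Potri.016G091100, PtrPAL4 is Potri.010G224100 and PtrPAL5 is Potri.010G224200. The RNA came from differentiating xylem, young wood taken with a razor from peeled stems 5 cm above the soil, of trees grown for 3 months in a greenhouse. The 12 libraries form 3 groups of 4. On day 0 the trees were fully irrigated, with soil at 74% and xylem at 80.6% water. On day 5 without watering, called mild drought, soil held 33% and xylem 75.3% water. On day 7, called severe drought, these were 29% and 74.3%. No genotype or transgene is given for these trees. No watered trees of days 5 and 7 are compared here, so drought cannot be told apart from tree age and harvest day. The labels do not say whether the libraries of a day came from separate trees, so p-values measure the spread between these libraries.

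Phenylalanine ammonia-lyase removes ammonia from phenylalanine to give cinnamic acid, the entry step of the phenylpropanoid pathway. In forming wood, most of that carbon goes on to monolignols, which are linked into lignin in the thickened walls of vessels and fibres. The pathway also feeds flavonoids, tannins and salicylates in poplars. PtrPAL1 and PtrPAL3 are known as close relatives of each other, and PtrPAL2, PtrPAL4 and PtrPAL5 as a second group of relatives.

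Library totals lay between 9.35 and 19.22 M counts. The 5 secondary wall cellulose synthase genes CesA4, CesA7 and CesA8, markers of xylem cells building thick walls, were found in every library, and none was at 0. No markers of phloem, cambium or bark were examined, so the purity of the tissue was not checked. The lowest value of any of them was 4.78 CPM (counts per 1 M scaled counts of the library), for the CesA8 gene Potri.011G069600 in day 7 replicate 3. Their summed level lay between 2762 and 10182 CPM on day 0, between 503 and 1932 CPM on day 5, and between 103 and 820.4 CPM on day 7. These markers thus moved with the PAL genes, and their part in the PAL result was not tested. In whole tissue, fewer wall-forming cells and less RNA per cell cannot be told apart.

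Transcripts of the PAL family became scarcer at each step of the drought. Summed over the 5 genes, the level was 4020 CPM ± 1849 (SD, n = 4) on day 0, 1574 CPM ± 212 on day 5 and 557 CPM ± 220.1 on day 7. The libraries of the 3 days did not overlap in this sum, with a lowest value of 2114 CPM on day 0, a range of 1403 to 1871 CPM on day 5 and a highest value of 792 CPM on day 7. Before scaling, the 5 genes made up 0.414% ± 0.155 (SD, n = 4) of the day 0 counts, 0.157% ± 0.0212 of the day 5 counts and 0.0531% ± 0.0214 of the day 7 counts.

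PtrPAL1 stood at 1458, 2188, 1226 and 718 CPM in day 0 replicates 1 to 4, at 689, 619.6, 880.4 and 740.0 CPM on day 5, and at 305, 335, 205 and 484 CPM on day 7. Day 0 and day 5 overlapped, since day 0 replicate 4 lay below both day 5 replicates 3 and 4, while all day 7 libraries lay below all others. PtrPAL3, its close relative, stood at 851, 902, 592 and 366 CPM on day 0, at 475, 443, 378 and 374 CPM on day 5, and at 79.5, 262, 54.1 and 111 CPM on day 7. Here too day 0 replicate 4 lay below the day 5 libraries, in this case all 4, and day 7 lay apart from both other days.

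PtrPAL2 stood at 703, 1296, 829.9 and 454 CPM in day 0 replicates 1 to 4, at 98.4, 203, 208 and 142 CPM on day 5, and at 30.2, 93.9, 24.0 and 56.8 CPM on day 7. Its 3 days did not overlap, but the gap between days 5 and 7 was narrow, with day 5 replicate 1 just above day 7 replicate 2. PtrPAL4 stood at 351, 1414, 804 and 378 CPM on day 0, at 90.0, 203, 264 and 124 CPM on day 5, and at 17.4, 65.5, 19.6 and 21.6 CPM on day 7. PtrPAL5 stood at 182, 746, 423 and 198 CPM on day 0, at 50.2, 109, 141 and 62.9 CPM on day 5, and at 8.14, 35.7, 8.65 and 10.98 CPM on day 7. In both genes the 3 days were apart. Day 0 replicate 2 was the highest library of its day for each of the 5 genes, and day 7 replicate 2 was the highest of its day for all but PtrPAL1.

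**Figure D1:**
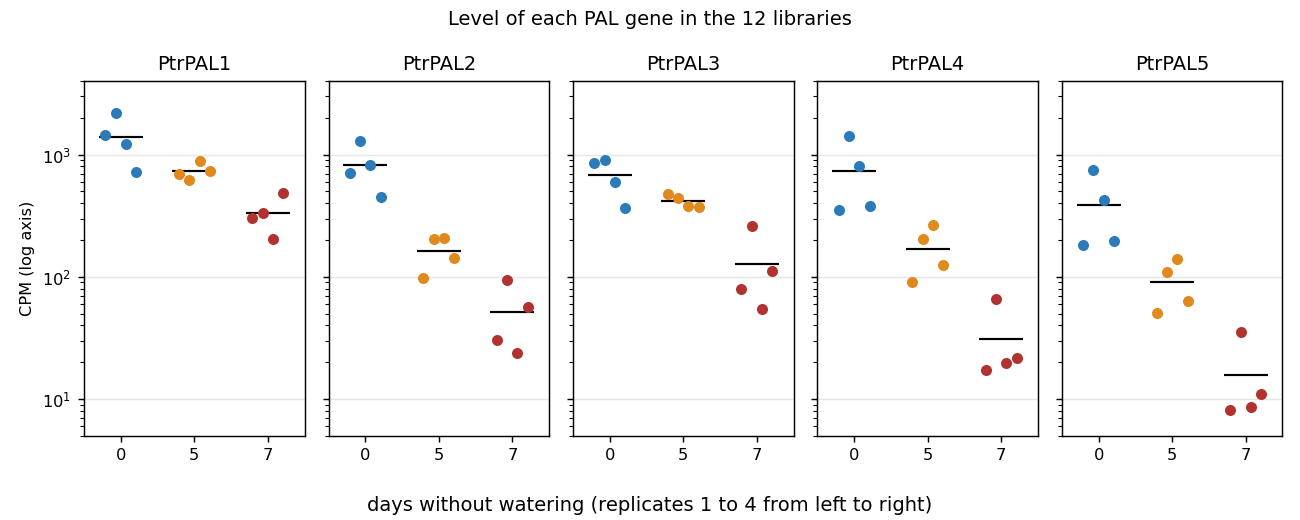
Level of each PAL gene in CPM on a log axis in the 12 libraries, by days without watering. Each point is 1 library and each black line the mean of 4. In PtrPAL2, PtrPAL4 and PtrPAL5 the days do not overlap, and in PtrPAL1 and PtrPAL3 days 0 and 5 do. Of all genes tested, 27.0% fell without overlap from day 0 to day 5. The share was 21.6% from day 0 to day 7 and 18.6% from day 5 to day 7. The share of all genes with all 3 days apart was not counted.

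Mild drought was examined first. PtrPAL2, PtrPAL4, PtrPAL5 and PtrPAL1 were lower on day 5 than on day 0 by edgeR's quasi-likelihood test, and PtrPAL3 did not pass it. Of all 26943 genes tested, 28.8% were called lower, against 4 of these 5. The fall was 5.03-fold for PtrPAL2, a log2 fold change of -2.33 ± 0.47 (standard error; adjusted p = 0.00131, edgeR). PtrPAL4 and PtrPAL5 changed by -2.11 ± 0.58 and -2.09 ± 0.60 on the log2 scale (standard error; adjusted p = 0.00847 and 0.0112, edgeR), or 4.33-fold and 4.26-fold. PtrPAL1 was 1.91-fold lower, a log2 fold change of -0.93 ± 0.34 (standard error; adjusted p = 0.0314, edgeR). PtrPAL3 had a log2 fold change of -0.70 ± 0.44 (standard error; adjusted p = 0.188, edgeR). The median of the 5 was -2.09, beside -0.01 over all genes tested. Groups did not overlap for 3 of the 5 genes, against 27.0% of all genes in that direction.

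The call of PtrPAL1 on day 5 depended on the libraries and the tool used. Its adjusted p was 0.0573 without day 0 replicate 1, 0.107 without day 0 replicate 2, 0.0731 without day 5 replicate 1, 0.0761 without day 5 replicate 2 and 0.0632 without day 5 replicate 4 (edgeR), and 0.0502 by limma-voom with all libraries.

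Under severe drought, all 5 genes were lower than with full irrigation and none overlapped with day 0, beside 23.6% of all genes called lower and 21.6% without overlap in that direction. PtrPAL5 and PtrPAL4 had the largest point estimates, with log2 fold changes of -4.61 ± 0.68 and -4.57 ± 0.65 (standard error; adjusted p = 0.000213 and 0.000166, edgeR), or 24.4-fold and 23.7-fold lower. PtrPAL2 was 16.0-fold lower, a log2 fold change of -4.001 ± 0.50 (standard error; adjusted p = 7.58e-05, edgeR). The other two had smaller point estimates: PtrPAL3 was 5.35-fold lower, at -2.42 ± 0.46 (standard error; adjusted p = 0.00111, edgeR), and PtrPAL1 was 4.21-fold lower, at -2.07 ± 0.34 (standard error; adjusted p = 0.000484, edgeR). The median was -4.001, beside 0.03 over all genes. Without day 7 replicate 2 the log2 fold changes were larger for PtrPAL2 (-4.44), PtrPAL3 (-3.03), PtrPAL4 (-5.20) and PtrPAL5 (-5.35). That of PtrPAL1 was not, at -2.05.

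The third comparison tested severe against mild drought directly. From day 5 to day 7 all 5 genes fell further, and no gene overlapped between these days, beside 19.9% of all genes called lower and 18.6% without overlap in that direction. PtrPAL3, which had not passed the test on day 5, fell by 1.72 on the log2 scale in this step (standard error 0.45; adjusted p = 0.01, edgeR), or 3.30-fold. PtrPAL5 fell by 2.52 (standard error 0.62; adjusted p = 0.00759, edgeR) and PtrPAL4 changed by -2.46 (standard error 0.59; adjusted p = 0.00669, edgeR). PtrPAL2 fell by 1.67 (standard error 0.46; adjusted p = 0.0129, edgeR) and PtrPAL1 fell by 1.14 (standard error 0.34; adjusted p = 0.0184, edgeR). The median was -1.72, beside 0.01 over all genes. Without day 7 replicate 3, the adjusted p of PtrPAL1 was 0.0515. Without day 7 replicate 2, the log2 fold changes of PtrPAL3, PtrPAL4 and PtrPAL5 were -2.35, -3.11 and -3.29.

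**Figure D2:**
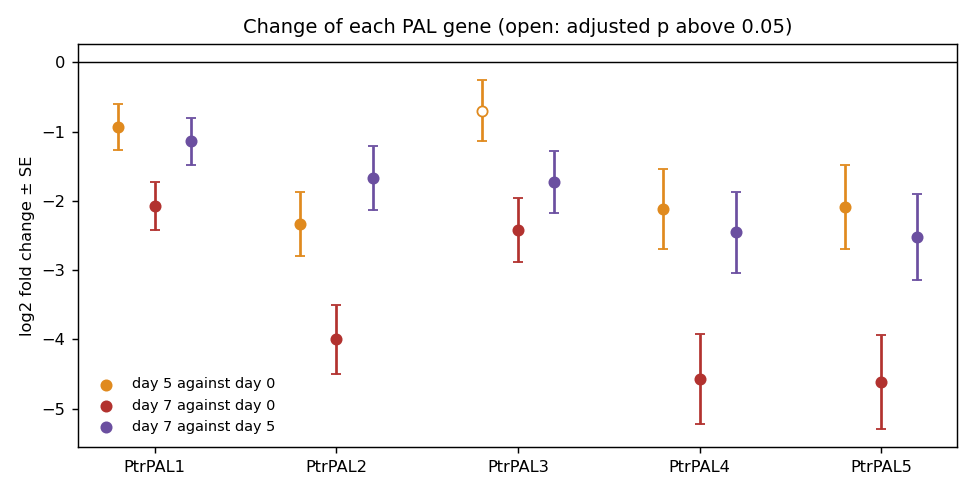
Log2 fold change of each PAL gene in the 3 comparisons, with its standard error from the edgeR fit to 12 libraries. Filled points have an adjusted p under 0.05; the open point is PtrPAL3 on day 5, at -0.70. The comparisons share libraries, so their points are not independent.

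Because the point estimates differed between the genes, the make-up of the PAL counts was then examined. A gene's share of the summed counts of the 5 genes can be compared between libraries but not between genes, since counts were not divided by transcript length. PtrPAL1 took 35.1% ± 4.17 (SD, n = 4) of the PAL counts of day 0, 46.7% ± 5.23 of those of day 5 and 62.0% ± 13.3 of those of day 7. PtrPAL2 took 20.6% ± 0.941, then 10.2% ± 2.47 and 8.69% ± 2.20. Its 4 day 0 libraries lay between 19.8% and 21.5%, and no drought library exceeded 12.9%. PtrPAL4 took 17.5% ± 5.33, then 10.5% ± 3.60 and 5.42% ± 2.32, and PtrPAL5 took 9.20% ± 2.85, then 5.60% ± 1.93 and 2.68% ± 1.31. PtrPAL3 took 17.6% ± 4.51 on day 0, 27.0% ± 5.65 on day 5 and 21.2% ± 7.98 on day 7.

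Of 15 such comparisons (5 genes, 3 pairs of days), 5 reached the smallest p that 4 against 4 libraries allow in a two-sided exact permutation test, 0.029, and none passed after Benjamini-Hochberg adjustment over the 15 (0.0858 for these 5). On day 5 against day 0 this was the share of PtrPAL2, lower by 10.4 percentage points in the drought libraries (mean shares 10.2% and 20.6%). On day 7 against day 0 the share of PtrPAL1 was 27.0 percentage points higher, while the differences were -11.9 for PtrPAL2, -12.1 for PtrPAL4 and -6.52 for PtrPAL5, and in these 4 the days did not overlap. The shares of a library add up to a fixed total, so the 15 comparisons are not independent of each other. The share of PtrPAL3 differed by 3.59 percentage points between days 7 and 0 (exact permutation p = 0.486; 0.486 adjusted). Between days 7 and 5 the smallest p was 0.0571, for PtrPAL4 (exact permutation; 0.107 adjusted). With 4 libraries a day, the adjusted p could pass 0.05 only if at least 9 of the 15 comparisons reached the smallest p, so these adjusted values do not show whether the 5 genes changed equally or unequally.

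**Figure D3:**
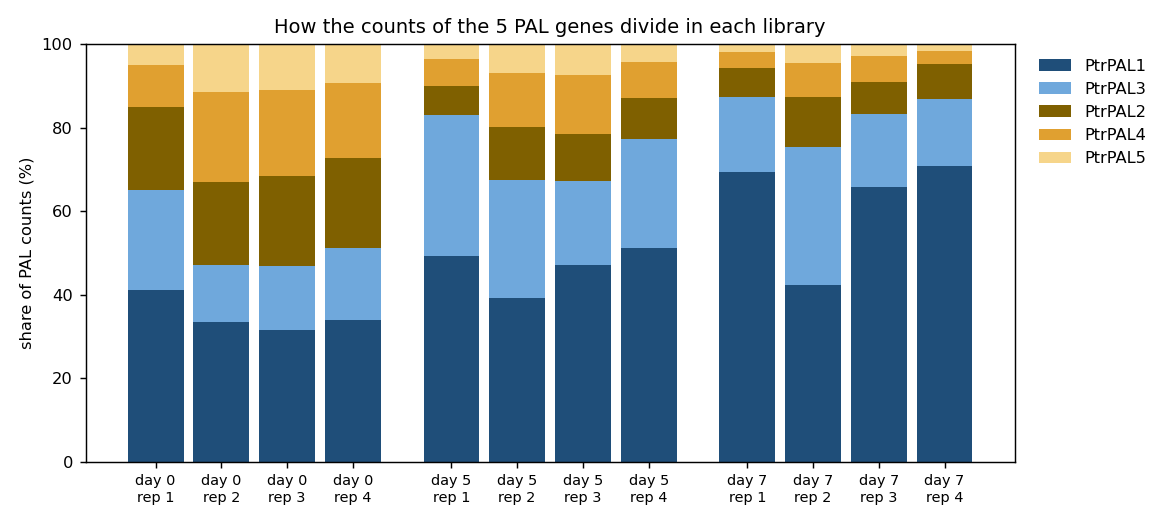
Share of the summed PAL counts taken by each of the 5 genes in each library, in percent, with the bars of a library adding to 100. The PtrPAL1 part ranges from 31.7% to 41.1% on day 0 and from 42.3% to 70.7% on day 7, where replicate 2 has the lowest.

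Within the family, PtrPAL4 and PtrPAL5 kept nearly a fixed proportion. Their rows stand next to each other in the count table. The level of PtrPAL4 spanned 81.3-fold over the 12 libraries and that of PtrPAL5 91.7-fold, yet the ratio of PtrPAL4 to PtrPAL5 counts stayed between 1.79 and 2.27. On day 0 this ratio lay between 1.89 and 1.93. In day 7 replicate 3, where it was highest, PtrPAL5 made up 30.6% of the pair's counts (95% Clopper-Pearson interval 26.4 to 35.0, counting error only), and in day 5 replicate 1, where it was lowest, 35.8% (33.6 to 38.1). No other pair of PAL genes was as tight: the next narrowest by the ratio of highest to lowest, PtrPAL2 to PtrPAL4, ranged from 0.786 to 2.63, and the relatives PtrPAL1 and PtrPAL3 had a ratio between 1.28 and 4.37. The deposited counts do not show whether reads were shared between PtrPAL4 and PtrPAL5, so these count as uncertain as separate measurements. No PAL gene had counts identical to those of another gene.

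PAL was then set beside 16 other genes of monolignol synthesis, which do not make up the whole pathway, from 9 enzyme families identified by their published designations. On day 5, 11 of the 16 were lower, 5 were not called and 0 were higher, with a median log2 fold change of -1.23 and a range from -2.43 to -0.43. Over all genes tested, the share called lower was 28.8% and the median -0.01. On day 7 against day 0, 15 were lower and 1 was not called, with a median of -2.58, beside 23.6% called lower and a median of 0.03 over all genes. On day 7 against day 5, 11 were lower and 5 not called, with a median of -1.47, beside 19.9% and 0.01 over all genes. The 5 cellulose synthase markers, which are not of this pathway, had medians of -2.04 on day 5, -4.48 on day 7 against day 0 and -2.38 on day 7 against day 5. No difference between families or lists was tested.

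Cinnamate 4-hydroxylase (C4H), which acts on the product of PAL, had 2 genes, and both were lower in all 3 comparisons. Potri.013G157900 had a log2 fold change of -2.43 ± 0.57 on day 5 (standard error; adjusted p = 0.00363, edgeR) and of -5.47 ± 0.66 on day 7 (standard error; adjusted p = 5.94e-05, edgeR), and of -6.07 on day 7 without day 7 replicate 2. Coumarate-CoA ligase (4CL), which activates the acids with coenzyme A, had 2 genes, both lower in all comparisons, with family medians of -1.24 on day 5 and -3.08 on day 7 against day 0. The 2 genes of hydroxycinnamoyltransferase (HCT), which makes the shikimate esters, had medians of -1.63 and -2.67. The gene of the ester 3-hydroxylase (C3H), Potri.006G033300, was at -1.22 and -2.64.

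Further along, caffeoyl shikimate esterase (CSE), which frees caffeic acid, had 1 of its 2 genes lower on day 5 and both on day 7. The other CSE gene, Potri.003G059200, was at -0.43 on day 5, and at 0.005 without day 0 replicate 2. Of the 3 genes of caffeoyl-CoA methyltransferase (CCoAOMT), 1 was lower on day 5 and 2 on day 7, beside 28.8% and 23.6% of all genes. The third, Potri.008G136600, was the only one of the 16 not called on day 7, at -0.91 ± 0.36 (standard error; adjusted p = 0.0548, edgeR), and passed in 5 of 21 alternatives. Cinnamoyl-CoA reductase (CCR), which makes the aldehydes, was at -0.73 on day 5 and at -1.86 on day 7. On day 5 it did not pass the test (adjusted p = 0.0568, edgeR), but it passed in 5 of 21 alternatives. Coniferaldehyde 5-hydroxylase (CAld5H), which acts in the branch to syringyl lignin, had 1 of 2 genes lower on day 5 and both on day 7. Cinnamyl alcohol dehydrogenase (CAD), the last step, was at -1.23 on day 5 and -1.74 on day 7, both called lower, and at -2.40 on day 7 without day 7 replicate 2. The day 5 call of CAD was lost in 9 of 21 alternatives, and that of the 4CL gene Potri.003G188500 in 4.

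**Figure D4:**
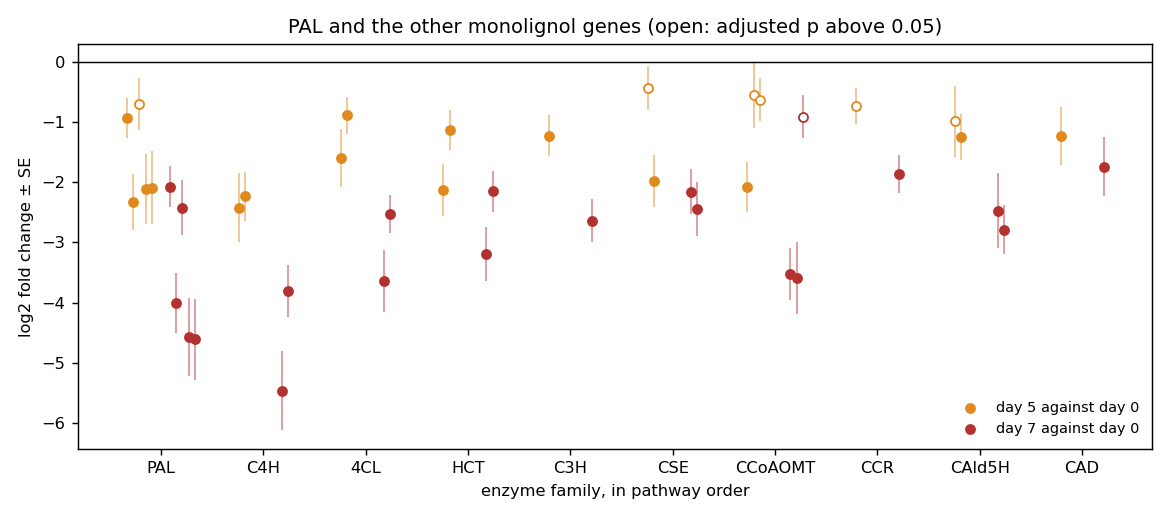
Log2 fold change with its standard error for the 5 PAL genes and the 16 other monolignol genes, by enzyme family in approximate pathway order, for day 5 and day 7 against day 0. Filled points have an edgeR adjusted p under 0.05 and open points do not; all values lie below 0.

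Genes with patterns most like PAL were sought over the 12 libraries, as a description with no test. For each of 26938 other genes, log2 CPM was correlated with the mean log2 CPM of the 5 PAL genes. Since the days stand apart, any gene that fell stepwise scores high. Outside the 16 pathway genes listed here and the cellulose synthases, Potri.002G189200 and Potri.002G189000 had the highest values. Both had Pearson r = 0.99 (n = 12 libraries), and they ranked 1 and 2 of 26938. No names are paired with these identifiers here, so whether they belong to the pathway is not known. Potri.002G189200 stood at 3687 CPM ± 1950 (SD, n = 4) on day 0, 848.5 CPM ± 262 on day 5 and 165 CPM ± 60.8 on day 7, and Potri.002G189000 at 3805 CPM ± 2020, 872 CPM ± 269 and 170 CPM ± 62.5. The levels of this pair were so close that reads shared between them are possible. An r over 0.9 was found for 12 of the 16 other monolignol genes and for 2.44% of all genes. The 5 cellulose synthase genes lay over 0.9 too, from 0.908 to 0.98. The C4H gene Potri.013G157900 ranked 7 of 26938 (r = 0.982), and the lowest of the 16 was the CCoAOMT gene Potri.008G136600 (r = 0.71).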

How the data were processed

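The authors deposited 1 table of raw whole-number read counts for 41335 genes in 12 libraries. The submitters' processing notes name TopHat. Not given in the sources used here are the build, the read counter and its use of strand. Reads of similar or overlapping genes may therefore be mixed. Groups and replicate numbers were read from the library titles. Libraries of a day were not duplicates (chi-square per degree of freedom 12.25 to 94.14 over 18 pairs).

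The main test was edgeR 4.0.16 (R 4.3.3): filterByExpr with a minimum count of 10 (26943 genes kept), TMM scaling, and a quasi-likelihood model with 1 mean per day fitted to all 12 libraries, with Benjamini-Hochberg adjustment over all genes and a threshold of 0.05. Standard errors were computed by dividing log2 fold changes by the root of F. For log2 CPM, the prior count was 2. Shares of PAL counts were compared by exact permutation tests (scipy 1.17.1). Figures used matplotlib 3.10.9 in Python 3.11.15.

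The members and lists were chosen with earlier results of these data known. The rule for named genes takes the 5 PAL genes, the other monolignol genes and the 2 genes most correlated with PAL. Other settings tried were scaling by RLE or upper quartiles, no filter, a filter of 1 CPM in 4 libraries, limma-voom (limma 3.58.1), DESeq2 1.42.0, the 2 compared days alone, a replicate block, and each library left out. Protein and promoter sequences and transcript lengths were not used here, so planned analyses of them were not run. One other gene of the pathway is not reported here.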

Additional observations from a re-analysis of the deposited data

Results flagged for a closer look

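In each day, the level and share of every PAL gene and their summed level were searched by Dixon's test for 1 library standing apart. Of 33 such groups 3 held one, where chance flags about 1 in 20 independent groups, and these groups share genes and libraries. All 3 are in day 7 replicate 2. PtrPAL4 stood there at 65.5 CPM where the remaining day 7 libraries held 17.4 to 21.6 CPM. PtrPAL5 stood at 35.7 CPM against 8.14 to 10.98 CPM. PtrPAL3 took 33.1% of PAL counts (95% Clopper-Pearson interval 32.17 to 34.03, counting error only) against 16.2% to 18.1%. The cellulose synthase markers summed to 820.4 CPM in the same library, against 103 to 120.3 CPM in the others of day 7. Their part in these values was not tested.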

How the results depend on the processing

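All 15 log2 fold changes of the PAL genes kept their negative sign in the 21 alternatives run for each, and PAL medians ranged from -2.38 to -1.55 on day 5, from -4.44 to -3.68 on day 7 and from -2.35 to -1.46 between days 7 and 5. The number of PAL genes called lower was 3 or 4 on day 5, 5 on day 7, and 4 or 5 between days 7 and 5; every lost call was that of PtrPAL1. Besides the settings given with the results, its day 5 call was lost without both day 0 replicate 2 and day 7 replicate 2, a setting chosen after seeing the data (edgeR adjusted p = 0.119). With replicate number as a block it was lost too (adjusted p = 0.0709), leaving 3 genes called; the block left 5 called in each of the other comparisons. Of 12 same-numbered pairs of libraries 4 had correlated deviations over 0.1, and 3 of 12 libraries correlated best with their own number. Same-numbered pairs ranged from -0.171 to 0.487, and other pairs of different days from -0.434 to 0.243. The value of 0.487 was that of day 5 replicate 2 with day 7 replicate 2. Whether the numbers mark a pairing is therefore not settled. The cause of the lost PtrPAL1 calls was not tested. The 16 other monolignol genes had 8 to 12 called lower on day 5, 15 or 16 on day 7, and 10 to 14 between days 7 and 5, where the same settings called 20.9% to 31.8%, 17.2% to 26.1% and 14.2% to 23.4% of all genes lower.

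Of the 15 share comparisons, 5 had an unadjusted exact permutation p under 0.05. This number was 0 to 4 with 1 library left out, where 4 against 3 libraries cannot go below 0.0571, and 0 with the replicate block, where 4 pairs cannot go below 0.125. The PtrPAL3 share difference between days 7 and 0 ranged from -0.386 (without day 7 replicate 2) to 5.73 percentage points with 1 library left out. The log2 fold change of the CSE gene Potri.003G059200 on day 5, which passed no test, ranged from -0.65 to 0.005 (without day 0 replicate 2). Counts per coding length were not run for lack of lengths.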

Other observations

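PtrPAL1 did not share the high values of day 7 replicate 2: it stood at 335 CPM there, within the 205 to 484 CPM of the other day 7 libraries. The ratio of PtrPAL1 to PtrPAL3 counts was 1.28 in that library and 3.79 to 4.37 in the other 3. Dixon's test flagged no value of day 0 replicate 1. There PtrPAL4 took 9.91% of PAL counts (95% Clopper-Pearson interval 9.60 to 10.2, counting error only) against 17.9% to 21.6% in the other day 0 libraries. PtrPAL3 took 24.0% there (23.6 to 24.5) against 13.8% to 17.3%. PtrPAL2, by contrast, held 19.8% to 21.5% of PAL counts in all 4 day 0 libraries.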
